A study of Homo sapiens with 44 samples.

Results

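The BCL2 family decides whether mitochondria of a cell release cytochrome c and start apoptosis. Its expression was described in human acute myeloid leukemia (AML) cell lines that carried short hairpin RNAs against the kinase genes GSK3A and GSK3B, which encode both forms of GSK3. Its 10 members here are the guardians BCL2, BCL2L1, BCL2L2, MCL1 and BCL2A1, the effector BAK1, and the BH3-only genes BIK, BID, BCL2L11 and BAD. They were taken by name, as every probe set whose single gene symbol in the platform annotation is one of these genes, and they hold 22 of the 22215 probe sets and are 10 of the 12165 genes that the arrays name. All 22 probe sets were tested on every array, with no filter on dim values. The text gives each gene by its brightest probe set unless another is named.

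The lines were HL-60, a promyelocytic line, THP-1 and MOLM-14, monocytic lines with a rearranged KMT2A gene, and U937, a monocytic line. Each line was infected with GSK3A hairpin 5 or 6, with GSK3B hairpin 1 or 2, or with a scrambled control hairpin. All infected cells, the controls included, were placed in puromycin at 1 µg per mL 48 h after infection, and RNA was taken 48 h later. Every line gave 4 arrays with GSK3A hairpins and 4 with GSK3B hairpins, 2 for each hairpin, and 3 control arrays, which makes 16, 16 and 12 arrays over the 4 lines and 44 in all. These are established lines grown in culture, and nothing in the labels says whether replicates came from separate infections. If they did not, a p-value here speaks for the scatter of repeated arrays and not of repeated infections.

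The guardians hold the effectors BAX and BAK1 inactive, and BH3-only proteins bind guardians or effectors and tip the balance toward death. BCL2 and MCL1 are the guardians that AML cells are best known to depend on, and BCL2 is the target of venetoclax. GSK3 is known to act on this family through protein: it phosphorylates MCL1 and so marks it for degradation, a step that RNA levels do not show.

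GSK3B fell with the GSK3B hairpins to between 18.9% and 46.7% of the control mean in the 4 lines (log2 change -1.56 ± 0.05, limma adjusted p = 1.9e-18 over 22215 probe sets). GSK3A changed little in RNA with the GSK3A hairpins. Its brighter probe set stood between 83.7% and 97.6% of the control mean (log2 change -0.09 ± 0.03, limma adjusted p = 0.020), and the labels state that the submitters checked both knockdowns by western blot. PTPRC, a gene of leukocytes in general, and the myeloid gene CEBPA were bright in all lines. At their medians they stood above 92% and 97.6% of the probe sets. MPO was bright only in HL-60, with a median intensity of 4918 against 33.6 or less in the other lines, and SPI1 lay near the median of its arrays. CD14 was bright only in HL-60, and ANPEP was dim in MOLM-14. CSF1R was dim, above 45.5% of the probe sets at its median and with a highest value of 49.9. ITGAM stood above 74.7% of the probe sets at its median. CD33 and LYZ were not read by a probe set of their own. The lymphoid genes with a probe set, CD3D, CD3E, CD2, CD79A and MS4A1, lay at 19.7 or below on every array.

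The members differed between the lines before any GSK3 hairpin. In the control cells all 10 genes differed between the 4 lines by limma's moderated F-test at an adjusted p under 0.05, as did 61% of all probe sets, so this share is high for the whole array. The widest spread was that of BCL2A1, a guardian known as a target of NF-kB in blood cells. Its deposited intensity was 776, 750.4 and 485 in U937 and 391, 398 and 373 in HL-60. MOLM-14 followed with 109, 107 and 85.6, and THP-1 lay far below with 8.06, 5.60 and 5.76. The order U937, HL-60, MOLM-14, THP-1 held in each neighbouring pair, and the closest neighbours, HL-60 and U937, differed by -0.71 ± 0.20 on the log2 scale (limma adjusted p = 0.0058).

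BIK, a BH3-only protein of the endoplasmic reticulum, had the next widest spread. It reached 1003, 952 and 1061 in MOLM-14 and 673, 699 and 731 in THP-1. It was 226, 211 and 279 in U937 and 131, 135 and 125 in HL-60. Again every pair of neighbours differed, from THP-1 minus MOLM-14 at -0.57 ± 0.12 (limma adjusted p = 2.5e-04) to THP-1 minus U937 at 1.51 ± 0.12 (limma adjusted p = 2.0e-11). The lines that stood low for BCL2A1, THP-1 and MOLM-14, were those that stood high for BIK.

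The other guardians each set 1 or 2 lines apart. BCL2 was lowest in U937, at 192, 185 and 274, and U937 lay below HL-60 by 0.85 ± 0.23 (HL-60 minus U937, limma adjusted p = 0.0035). HL-60, MOLM-14 and THP-1 averaged 392, 449 and 481 and did not differ beyond their spread. BCL2L1, which encodes BCL-XL, was highest in U937, with 148, 114 and 118, against means of 49.8 in THP-1, 38.9 in HL-60 and 36.2 in MOLM-14. Of those 3 lines THP-1 and MOLM-14 differed (0.31 ± 0.11, limma adjusted p = 0.037), and HL-60 differed from neither. BCL2L2, which encodes BCL-W, averaged 112 in THP-1, 70.2 in HL-60, and 50.3 and 48.3 in MOLM-14 and U937, and only MOLM-14 and U937 could not be told apart. MCL1 averaged 1305 in THP-1, against 977 for MOLM-14, 559 in U937 and 558 in HL-60, and U937 and HL-60 could not be told apart. None of the other MCL1 probe sets set HL-60 and MOLM-14 apart (limma adjusted p from 0.63 to 0.85). None set HL-60 and THP-1 apart either (limma adjusted p from 0.085 to 0.51), while some did separate THP-1 from U937.

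BAK1 averaged 105 in THP-1, 80.0 in U937, 69.1 in HL-60 and 57.1 in MOLM-14, and U937 and HL-60 did not differ beyond their spread. BAD averaged 57.8 in THP-1, 40.1 in U937, 33.4 in HL-60 and 18.3 in MOLM-14, and again U937 and HL-60 did not. BID, the member that caspase 8 cuts, averaged 698 in HL-60, 518 in U937, 438 in MOLM-14 and 426 in THP-1, with MOLM-14 and THP-1 alike within their spread. The second BID probe set did separate them (THP-1 minus MOLM-14 -0.29 ± 0.08, limma adjusted p = 0.0034). BCL2L11, which encodes BIM, was dim at means of 26.7 to 46.1, and the single pair that differed was THP-1 minus U937 at -0.58 ± 0.17 (limma adjusted p = 0.0078). Each line fills 1 row of the plate, so line and plate row cannot be told apart.

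**Figure D1:**
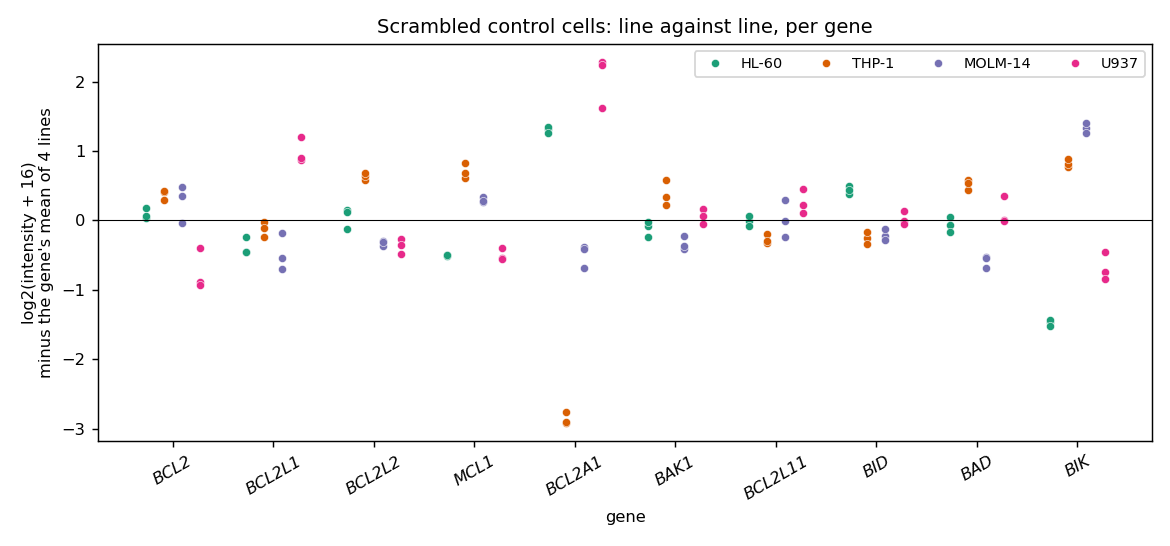
Levels of the 10 genes in scrambled control cells. Each point is 1 array, and the y axis gives log2(deposited intensity + 16) minus the mean of the 4 line means of that gene, so lines are comparable within a gene and genes are not set against each other. The 3 THP-1 arrays stand far below the rest for BCL2A1, and the 3 U937 arrays stand above the rest for BCL2L1.

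RefSeq promoters are shown for BCL2 and BCL2A1, since these guardians moved in opposite directions with the GSK3A hairpins. Both are the 250 bases before the transcription start, read 5′ to 3′ on the minus strand of GRCh38.p14. BCL2 lies at chr18:63319770-63320019 and BCL2A1 at chr15:79971197-79971446. Capitals mark a match to the TATA box letters TATAAA.
BCL2: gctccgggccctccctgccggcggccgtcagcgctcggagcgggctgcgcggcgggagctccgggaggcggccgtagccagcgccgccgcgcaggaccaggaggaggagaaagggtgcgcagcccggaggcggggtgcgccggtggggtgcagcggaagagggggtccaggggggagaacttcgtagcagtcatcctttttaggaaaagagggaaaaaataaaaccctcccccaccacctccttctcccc
BCL2A1: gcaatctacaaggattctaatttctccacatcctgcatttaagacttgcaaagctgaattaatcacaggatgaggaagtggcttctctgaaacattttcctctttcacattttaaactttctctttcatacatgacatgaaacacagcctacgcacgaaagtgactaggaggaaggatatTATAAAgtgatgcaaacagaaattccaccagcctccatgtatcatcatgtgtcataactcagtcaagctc
Over 300 bases, 50 after the start included, G and C make up 70.7% of the BCL2 promoter and 41% of the BCL2A1 promoter, against a median of 58.7% over the 35116 promoters in the table. The BCL2A1 promoter holds TATAAA once, beginning at position -70 from the start, and the BCL2 promoter does not hold these letters. On both strands TATAAA is in 11.5% of all promoters. The E-box CACGTG and the AP-1 letters TGANTCA, read the same way, are in 7.26% and 7.71% of all promoters and in neither of these windows. An NF-kB motif searched in the same way is in 1.91% of all promoters and in neither window. The table gave a promoter for 7 of the 10 members and none was read for BCL2L2, MCL1 and BIK.

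The first comparison asked what the GSK3A hairpins did to the family, as the mean of both hairpins less that of the control, with equal weight for each line. Of the 10 members 5 rose, 2 fell and 3 did not pass the test, where 16.9% of all probe sets passed, 8.56% rising and 8.37% falling. The share was 33.2% among probe sets at or above the median intensity and 21% with 1 probe set a gene, and in each of those fits 6 members rose and 2 fell. In this mean of both hairpins the guardians BCL2L2, BCL2A1, BCL2L1 and MCL1 and the effector BAK1 rose, while the guardian BCL2 and the BH3-only gene BIK fell. The hairpins did not raise the same genes. Taken alone, hairpin 5 gave no call for MCL1, and hairpin 6 gave none for BCL2A1, BCL2L1 or BAK1. The median change of the 10 members was 0.11 on the log2 scale, against -0.00085 over all probe sets. A log2 change here is of log2(intensity + 16), which understates changes of dim genes, and its error is the standard error of the fit. In these bulk cultures fewer cells of a kind and less RNA per cell cannot be told apart.

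BCL2 fell most of the members, by 0.53 ± 0.11 on the log2 scale, a 1.44-fold drop (limma adjusted p = 5.5e-04), and it was below the control in 8 of 8 combinations of hairpin and line. In HL-60 its intensity was 235, 214, 236 and 259 with GSK3A hairpins, against 415, 376 and 384 with the control. In MOLM-14 it was 215, 285, 321 and 284 with GSK3A hairpins, against 471, 519 and 357 with the control. In both lines each array with a GSK3A hairpin lay below each control array.

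THP-1 showed the same order over a narrower gap, with BCL2 at 380.3, 369.9, 436 and 443 with GSK3A hairpins and 453, 493 and 497 with the control. In U937 the groups overlapped, with 110.4, 185, 95.4 and 189 with GSK3A hairpins and 192, 185 and 274 with the control. The U937 arrays divide by plate position. In plate columns 1 to 6 the values were 110.4 and 95.4 with GSK3A hairpins, against 192 and 185 with the control, and in columns 7 to 11 they were 185 and 189 with GSK3A hairpins, against 274 with the control. Within each set of columns they did not overlap. Over the 4 lines the change was -0.63 in columns 1 to 6 (limma adjusted p = 2.2e-04) and -0.44 in columns 7 to 11 (limma adjusted p = 0.019), and with the columns as a block within each line it was -0.56 ± 0.05 (limma adjusted p = 3.4e-09). Leaving out replicate 1 of every group ended the call, with a change of -0.43. That fit keeps 1 array per hairpin and line, from columns 7 to 11, against control arrays of both sets of columns. The same holds in the fits without replicate 2, with hairpin arrays from columns 1 to 6.

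BIK fell by 0.40 ± 0.06, a 1.32-fold drop (limma adjusted p = 5.3e-06), in 7 of 8 combinations. The lowest values were in HL-60, at 58.0, 59.0, 94.8 and 65.8 with GSK3A hairpins, against 131, 135 and 125 with the control. MOLM-14 had 688, 732, 792 and 864 with GSK3A hairpins, against 1003, 952 and 1061 with the control. U937 had 176, 161, 202 and 209.7 with GSK3A hairpins, against 226, 211 and 279 with the control. In these 3 lines the groups did not overlap. In THP-1 they did, at 614, 585, 781 and 641 with GSK3A hairpins and 673, 699 and 731 with the control.

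BCL2L2 had the smallest adjusted p of the members, with a rise of 0.41 ± 0.04, or 1.32-fold (limma adjusted p = 2.2e-08), in 7 of 8 combinations. It reached 134, 158, 106 and 89.1 in HL-60 with GSK3A hairpins, against 60.2, 76.1 and 74.2 with the control. In MOLM-14 it was 72.0, 72.1, 69.1 and 80.6 with GSK3A hairpins, against 48.5, 51.6 and 51.0 with the control. In U937 it was 77.8, 89.8, 71.2 and 61.1 with GSK3A hairpins, against 53.1, 43.0 and 48.8 with the control. No array of the GSK3A hairpins in these lines came down to a control array. In THP-1 the groups overlapped, at 138, 124, 107 and 113 with GSK3A hairpins and 108, 113 and 117 with the control. In plate columns 7 to 11 alone the change was 0.39 (limma adjusted p = 0.13).

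**Figure D2:**
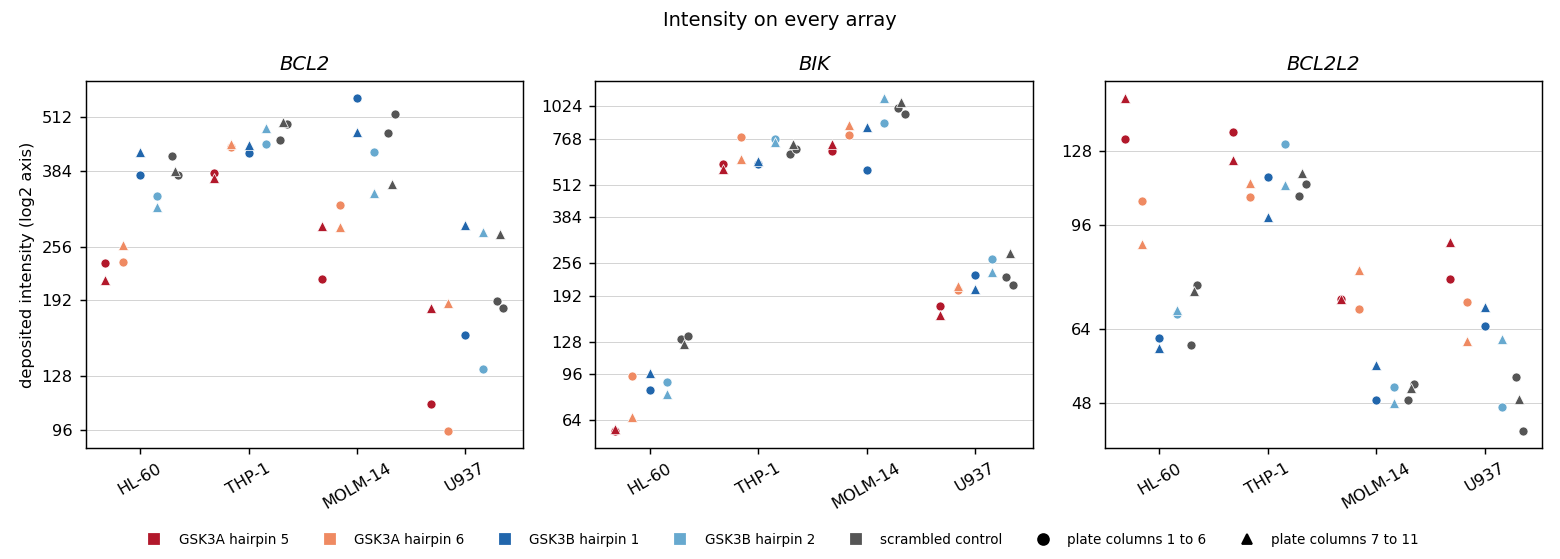
Deposited intensity of BCL2, BIK and BCL2L2 on each of the 44 arrays (log2 axis, a range of its own for each gene), by cell line and hairpin, with circles for plate columns 1 to 6 and triangles for columns 7 to 11. GSK3A hairpins (reds) stand left, GSK3B hairpins (blues) in the middle and controls (grey) right: BCL2 with GSK3A hairpins lies below the control in HL-60, THP-1 and MOLM-14, and BCL2L2 above it in HL-60, MOLM-14 and U937.

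BCL2A1 rose by 0.42 ± 0.09, or 1.34-fold (limma adjusted p = 0.0019), and the hairpins differed. In MOLM-14 hairpin 5 gave 306 and 237, hairpin 6 gave 134 and 61.5, and the control gave 109, 107 and 85.6. In U937 hairpin 5 gave 1083 and 967, hairpin 6 gave 578 and 858, and the control gave 776, 750.4 and 485. In HL-60 hairpin 5 gave 619 and 650.4, hairpin 6 gave 469 and 415, and the control gave 391, 398 and 373. Hairpin 5 lay above the control arrays in each line, THP-1 included, where 17.2 and 15.4 stood against 8.06, 5.60 and 5.76. These THP-1 values are near the floor, as array medians were 19.0 to 22.9 and lower quartiles 7.57 to 8.28. Hairpin 5 minus control was 0.78 ± 0.11 (limma adjusted p = 8.8e-06), hairpin 6 minus control was 0.06 ± 0.11 (limma adjusted p = 0.83), and hairpin 5 minus hairpin 6 was 0.72 ± 0.12 (limma adjusted p = 1.2e-04). A random block of line and construct also counts the spread between the hairpins within a line. It takes the same hairpin in different lines as independent. With this block the GSK3A call ended at a limma adjusted p of 0.11. It also ended without replicate 1 (adjusted p = 0.073) and in columns 7 to 11 alone (adjusted p = 0.23).

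BAK1, one of the proteins that open the outer membrane of mitochondria, rose by 0.21 ± 0.05 (limma adjusted p = 0.0030). MOLM-14 had 101, 72.9, 71.2 and 64.8 with GSK3A hairpins, against 53.2, 55.2 and 63.0 with the control, and HL-60 had 89.0, 89.6, 76.1 and 76.8 with GSK3A hairpins, against 61.9, 71.3 and 74.0 with the control. These groups did not overlap, and in THP-1 and U937 they did. Its call ended with the random block (adjusted p = 0.11), in columns 7 to 11 alone (0.08, adjusted p = 0.63) and without replicate 1 (adjusted p = 0.32) or replicate 2 (adjusted p = 0.093).

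MCL1 rose by 0.13 ± 0.03 (limma adjusted p = 0.0050), and HL-60 was the line where its groups did not overlap. There it was 655, 708, 737 and 679.9 with GSK3A hairpins, against 559.8, 553 and 559.7 with the control. Without HL-60 the change was 0.06 (adjusted p = 0.43). It also lost the call with the random block (adjusted p = 0.066), in columns 7 to 11 alone (0.09, adjusted p = 0.64) and without replicate 1 (adjusted p = 0.12) or replicate 2 (adjusted p = 0.34).

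BCL2L1 rose by 0.17 ± 0.05 (limma adjusted p = 0.025). Its groups overlapped in all 4 lines. The call ended without HL-60 (adjusted p = 0.095), THP-1 (adjusted p = 0.079) or MOLM-14 (0.11, adjusted p = 0.10), within either set of plate columns, with the random block (adjusted p = 0.11) and without replicate 1 (adjusted p = 0.12) or replicate 2 (0.09, adjusted p = 0.71).

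The BH3-only genes BAD, BID and BCL2L11 did not pass. BAD, whose protein binds BCL2 and BCL-XL when it is not phosphorylated, changed by 0.10 ± 0.04 (limma adjusted p = 0.057), BID by -0.04 ± 0.03 (adjusted p = 0.55) and BCL2L11 by -0.09 ± 0.08 (adjusted p = 0.55). BAD lay near the threshold: with plate columns as a block, where 27.7% of probe sets passed, its adjusted p was 0.046.

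The GSK3B hairpins gave 0 calls among the 10 members, where 2.53% of all probe sets passed limma's test. At an unadjusted p under 0.05, which 11.6% of all probe sets reached, 1 member lay higher and 3 lower, and no second tool was run. The closest was BIK at -0.20 ± 0.06 (limma adjusted p = 0.0501), then BAK1 at -0.16 ± 0.05 (adjusted p = 0.077) and MCL1 at 0.11 ± 0.03 (adjusted p = 0.081). MCL1 was above the control in 8 of 8 combinations of GSK3B hairpin and line. All 3 passed with plate columns as a block, where 8% of probe sets did, BIK at an adjusted p of 0.0056, BAK1 at 0.023 and MCL1 at 0.033. BCL2 and BCL2L2, which moved with the GSK3A hairpins, changed by -0.07 ± 0.11 (adjusted p = 0.90) and 0.04 ± 0.04 (adjusted p = 0.80). The comparisons with the GSK3A and the GSK3B hairpins share the control arrays.

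**Figure D3:**
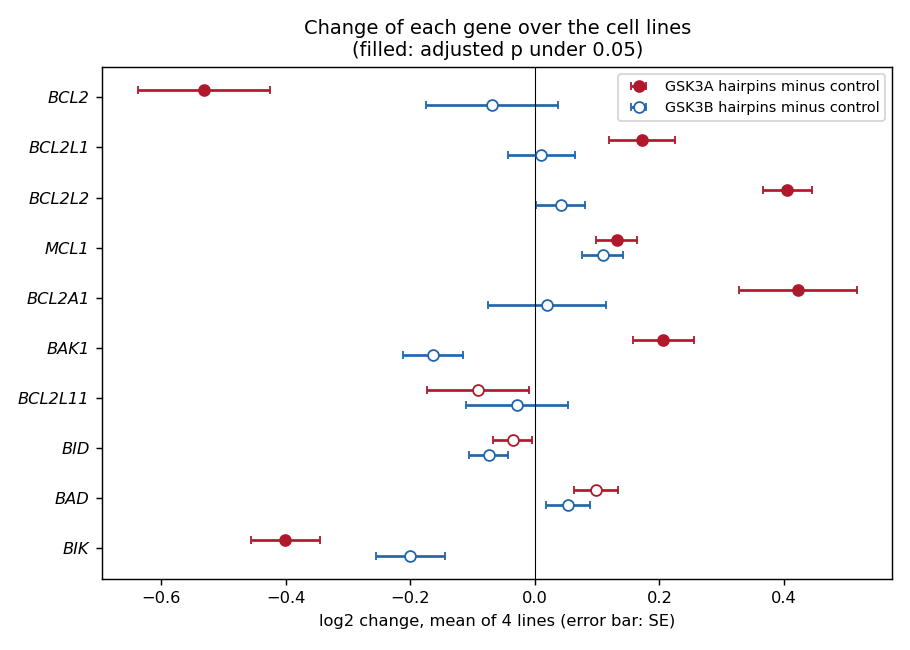
Log2 change of each gene with GSK3A hairpins (red) and GSK3B hairpins (blue) against the scrambled control, averaged over 4 lines, with the standard error of the fit, and filled where the adjusted p is under 0.05. For GSK3A, BCL2L2, BCL2A1, BAK1, BCL2L1 and MCL1 are filled to the right of 0 and BCL2 and BIK to the left, and no point for GSK3B is filled.

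GSK3A hairpins were then set against GSK3B hairpins directly, which uses no control array. Of the 10 members 4 were higher and 2 lower with GSK3A hairpins, where 17.6% of all probe sets passed, 8.69% higher and 8.88% lower. With plate columns as a block, where 28.5% of probe sets passed, the counts were again 4 and 2. BCL2L2 was higher by 0.36 ± 0.04 (limma adjusted p = 2.6e-08), BAK1 by 0.37 ± 0.05 (limma adjusted p = 6.3e-07), BCL2A1 by 0.40 ± 0.09 (limma adjusted p = 0.0013) and BCL2L1 by 0.16 ± 0.05 (limma adjusted p = 0.022). BCL2 was lower, at -0.46 ± 0.10 (limma adjusted p = 1.0e-03), and so was BIK, at -0.20 ± 0.05 (limma adjusted p = 0.0055). Each of the 6 kept 1 direction in the 4 lines. Within a line the difference passed for BCL2L2 and BAK1 in HL-60 (8.07% of probe sets), for BCL2L2, BAK1, BCL2A1 and BCL2 in MOLM-14 (12.5%), for BAK1 in U937 (3.64%) and for no member in THP-1 (1.66%). With plate columns as a block BCL2, BIK and MCL1 passed as well in HL-60 (16.6%), and BCL2, BIK, BCL2L2 and BCL2A1 in U937 (11.5%). MCL1 differed by 0.02 ± 0.03 (adjusted p = 0.74).

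Only BCL2L2 and BAK1 kept this call under every alternative run. BCL2 lost it without replicate 1 (adjusted p = 0.094) or replicate 2 (adjusted p = 0.058), and BIK, BCL2A1 and BCL2L1 lost it with the random block, in plate columns 1 to 6 alone, and without replicate 1 or 2, and BCL2A1 also in columns 7 to 11 alone. Without HL-60 or U937 the call of BIK ended (adjusted p = 0.080 and 0.060), and without HL-60, THP-1 or U937 that of BCL2L1 did (adjusted p = 0.060, 0.089 and 0.13).

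Several members differed between the hairpins of a target. Each hairpin held the same single plate columns in every line, so hairpin and plate column cannot be told apart. With hairpin 5 BCL2L2, BCL2A1, BAK1, BCL2L1 and BAD rose and BCL2 and BIK fell, 7 of 10 members where 17.8% of all probe sets passed, 9.02% rising and 8.8% falling. With hairpin 6 BCL2L2 and MCL1 rose and BCL2 and BIK fell, 4 of 10 where 13.1% passed, 6.78% rising and 6.32% falling. The difference of hairpin 5 minus hairpin 6 passed for 5 members, where 13.4% of probe sets did, 6.85% higher and 6.51% lower. BCL2A1, at the 0.72 above, BCL2L2 (0.24 ± 0.05, limma adjusted p = 0.0016) and BAK1 (0.22 ± 0.06, limma adjusted p = 0.020) were higher with hairpin 5. MCL1 (-0.19 ± 0.04, limma adjusted p = 0.0027) and BIK (-0.27 ± 0.07, limma adjusted p = 0.0097) were lower with it. BCL2 differed between them by -0.15 ± 0.14 (adjusted p = 0.63).

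MCL1 differed the other way. It rose by 0.22 ± 0.04 with hairpin 6 (limma adjusted p = 1.7e-04) and lay above the control arrays on both arrays of each line. Hairpin 6 gave 1427 and 1435 in THP-1, against 1216 to 1414 with the control, and 737 and 679.9 in HL-60, against 553 to 559.8. It gave 1053 and 1172 in MOLM-14, against 956 to 1005 with the control, and 660.0 and 616 in U937, against 535 to 599. Hairpin 5 changed it by 0.04 ± 0.04 (adjusted p = 0.63).

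With GSK3B hairpin 2 the single member called was BAK1, and with hairpin 1 it was BIK. With plate columns as a block BCL2 passed too with hairpin 2 (-0.18 ± 0.06, limma adjusted p = 0.038, where 12.5% of probe sets passed). Between the hairpins BCL2L1 and BCL2L11 then passed as well as BAK1 and BIK, where 18.2% did. BAK1 fell by 0.36 ± 0.06 with hairpin 2 (limma adjusted p = 2.0e-04, where 4.79% of probe sets passed, 2.28% rising and 2.5% falling) and changed by 0.03 ± 0.06 with hairpin 1 (adjusted p = 0.94). Hairpin 2 gave 51.2 and 41.2 in HL-60 and 76.1 and 84.2 in THP-1, then 40.6 and 42.4 for MOLM-14 and 63.0 and 61.3 for U937. In each line these lie under the lowest control array, which was 61.9 in HL-60, 91.7 in THP-1, 53.2 for MOLM-14 and 72.9 for U937. Hairpin 1 minus hairpin 2 was 0.39 ± 0.06 (limma adjusted p = 1.4e-04, where 8.35% passed, 4.15% higher and 4.2% lower).

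BIK fell by 0.31 ± 0.07 with GSK3B hairpin 1 (limma adjusted p = 0.0048, where 3.54% passed, 1.73% rising and 1.81% falling) and changed by -0.08 ± 0.07 with hairpin 2 (adjusted p = 0.64). Their difference was -0.23 ± 0.07 (limma adjusted p = 0.045). In HL-60 both hairpins stood below the control, with 83.4 and 97.3 for hairpin 1 and 89.2 and 80.9 for hairpin 2, against 131, 135 and 125. BCL2A1 in HL-60 set the GSK3B hairpins apart as well, at 631 and 604 with hairpin 1, 286 and 269 with hairpin 2, and 391, 398 and 373 with the control. Hairpin 1 minus hairpin 2 there was 1.10 ± 0.25 (limma adjusted p = 0.0056).

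**Figure D4:**
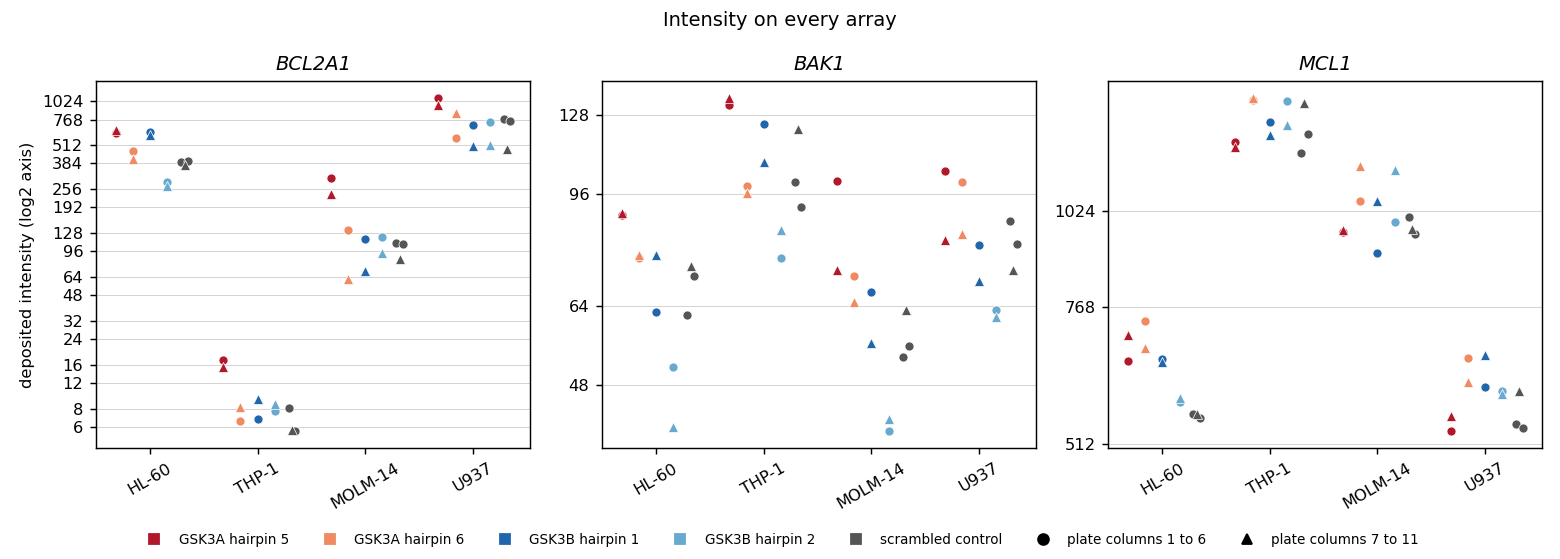
Deposited intensity of BCL2A1, BAK1 and MCL1 on each of the 44 arrays (log2 axis, a range of its own for each gene), with colours for hairpins and shapes for plate columns. GSK3A hairpin 5 (dark red) stands above the control for BCL2A1 in all 4 lines, GSK3B hairpin 2 (light blue) lowest for BAK1 in all 4 lines, and GSK3A hairpin 6 (light red) above every control of its line for MCL1. In THP-1 all BCL2A1 values lie below the array medians.

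Lines were then taken 1 at a time. With GSK3A hairpins 4 of 10 members passed in HL-60, where 6.91% of all probe sets did (3.14% higher, 3.77% lower), and 6 in MOLM-14, where 12.3% did (6.23% higher, 6.07% lower). In U937 1 passed, where 4.83% of probe sets did (2.48% higher, 2.35% lower), and in THP-1 0, where 1.36% did. In HL-60 BCL2L2 (0.61 ± 0.08, limma adjusted p = 6.4e-06) and MCL1 (0.33 ± 0.07, limma adjusted p = 0.0014) rose and BIK (-0.78 ± 0.11, limma adjusted p = 2.2e-05) and BCL2 (-0.68 ± 0.21, limma adjusted p = 0.049) fell. In MOLM-14 BCL2L2 (0.44), BCL2A1 (0.60), BCL2L1 (0.36) and BAK1 (0.35) rose and BCL2 (-0.65) and BIK (-0.39) fell, at limma adjusted p-values from 2.5e-04 to 0.042. In U937 BCL2L2 rose (0.49 ± 0.08, limma adjusted p = 2.9e-04), and BCL2 stood at -0.55 ± 0.21 (adjusted p = 0.17). With plate columns as a block, where 12.4% of probe sets passed in U937, 2 members rose and 2 fell there. These were BCL2L2, BCL2A1 (0.42 ± 0.13, limma adjusted p = 0.040), BCL2 (-0.68 ± 0.10, limma adjusted p = 3.2e-05) and BIK (-0.33 ± 0.09, limma adjusted p = 0.020). In HL-60, where 15.8% passed with the block, BCL2A1 passed as well (limma adjusted p = 0.025).

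THP-1 had no call with GSK3A hairpins, and none of its 10 members had an unadjusted p under 0.05 in limma's test, where 8.35% of probe sets did. BCL2 stood at -0.24 ± 0.21, BCL2A1 at 0.27 ± 0.19, BIK at -0.11 ± 0.11 and BCL2L2 at 0.08 ± 0.08. With GSK3B hairpins the single call in a line was BIK in HL-60 (-0.50 ± 0.11, limma adjusted p = 0.025, where 0.693% of probe sets passed, 0.392% falling). The share of probe sets that passed with the GSK3B hairpins was 0.977% in MOLM-14, 0.14% in U937 and 0.0495% in THP-1. THP-1 also kept the most GSK3B RNA with these hairpins, at 46.7% of the control mean.

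The difference between lines was tested with a moderated F-test on the change itself. For the GSK3A hairpins it passed for BCL2L2 (limma adjusted p = 0.016) and BIK (limma adjusted p = 0.040), 2 of 10 members where 5.56% of all probe sets passed. For both genes the change was widest in HL-60 and narrowest in THP-1. The brighter GSK3A probe set stood at 83.7% of control in HL-60, 92.4% in U937, 96.6% in THP-1 and 97.6% in MOLM-14. Whether the depth of knockdown bears on the differences between lines was not tested. MCL1, called in HL-60 alone, gave an adjusted p of 0.14 in the F-test and 0.025 with plate columns as a block. The change of BCL2 was not shown to differ between lines (adjusted p = 0.84). For the GSK3B hairpins no member passed, where 0.176% of probe sets did, and the smallest p before adjustment were 0.013 for BIK and 0.028 for BCL2L2.

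**Figure D5:**
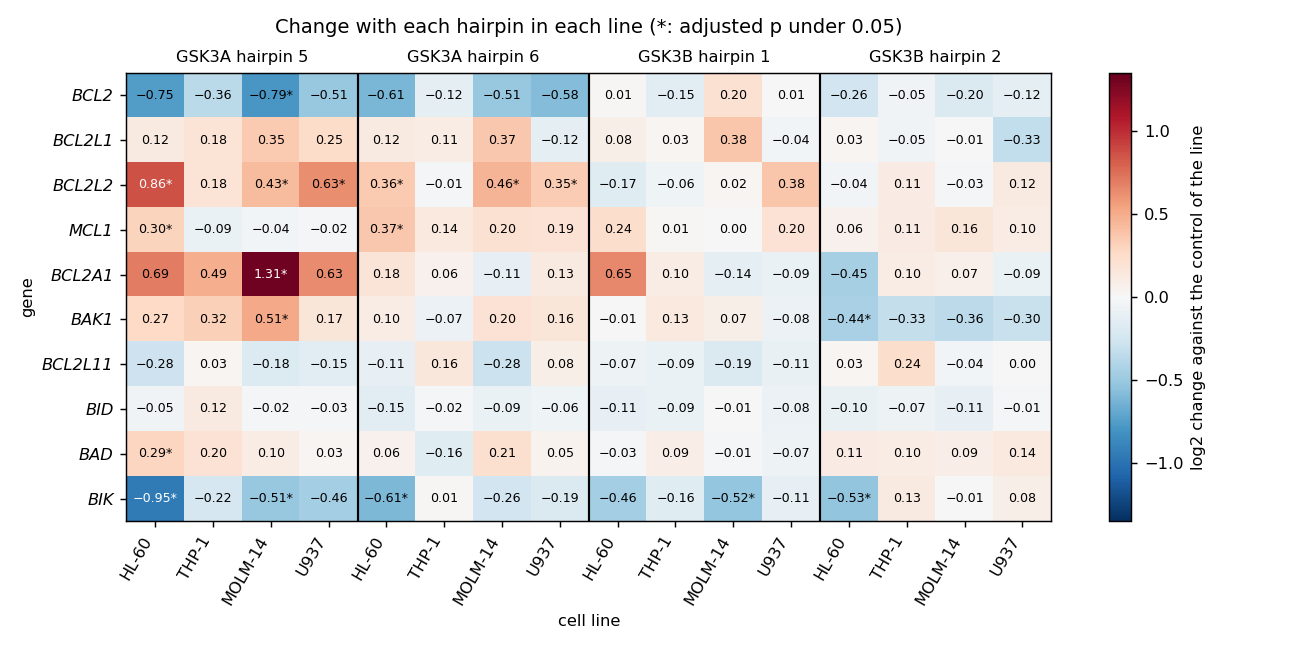
Log2 change of each gene with each hairpin against the control of the same line (columns, 4 lines within each hairpin; red higher, blue lower; a star marks an adjusted p under 0.05). BCL2 is blue in all 8 GSK3A columns, BCL2A1 reaches 1.31 with GSK3A hairpin 5 in MOLM-14, and BIK reaches -0.95 with GSK3A hairpin 5 in HL-60.

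Other probe sets of the same genes were mostly dim. A second BCL2 probe set, at 12.3 to 25.4 on all arrays, fell with the GSK3A hairpins too (-0.14 ± 0.03, limma adjusted p = 0.0011) in 8 of 8 combinations, and the remaining 2, at 17.6 or below, did not pass. For BID and BAD the second probe set passed where the brightest did not: BID at -0.13 ± 0.04 (limma adjusted p = 0.011) and BAD at 0.12 ± 0.03 (limma adjusted p = 0.012). The other 4 MCL1 probe sets did not pass. A dim one of them stood at 0.09 ± 0.05 (adjusted p = 0.25), above the control in 7 of 8 combinations. Another lay below the control in THP-1 (-0.16), MOLM-14 (-0.19) and U937 (-0.07) and above it in HL-60 (0.09). A further one lay below the control in each line, from -0.005 in HL-60 to -0.13 in U937. The brightest of the 4 stood at -0.15 ± 0.14 (adjusted p = 0.56), and in U937 it read 145 to 199 in plate columns 1 to 6 and 65.7 to 88.2 in columns 7 to 11, in hairpin and control cells alike. The other 2 BCL2L1 probe sets read 26.4 or below and did not pass, nor did the second of BCL2L11. Over all 22 probe sets 6 rose and 4 fell with the GSK3A hairpins and none passed with the GSK3B hairpins.

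Beyond the members, 10 of 12 other BCL2 family genes had a probe set of their own. With the GSK3A hairpins 3 rose and 0 fell by limma's test, where 16.9% of all probe sets passed (8.56% higher, 8.37% lower): BNIP3L, a mitophagy receptor, by 0.49 ± 0.08 (adjusted p = 9.6e-05), BCL2L13 by 0.15 ± 0.03 (adjusted p = 1.6e-04) and BAX, the partner of BAK1, by 0.23 ± 0.05 (adjusted p = 0.0027). At an unadjusted p under 0.05 the counts were again 3 higher and 0 lower, where 26.6% of all probe sets reached it. The BH3-only genes PMAIP1 (0.12 ± 0.08), BBC3 (0.02 ± 0.07) and HRK (0.06 ± 0.05) did not pass, and the list's median change was 0.04. For PMAIP1 this mean joins lines of opposite direction, at 0.48 in HL-60, 0.35 in THP-1, 0.17 in U937 and -0.52 in MOLM-14. No test by line is given for it. With the GSK3B hairpins 0 of 10 passed limma's test, where 2.53% of all probe sets did, and 0 reached an unadjusted p under 0.05. Several of these 10 genes were dim, with mean intensities below the array medians, so the counts say little about them. HRK was among these, averaging 10.8 with GSK3A hairpins, 10.4 with GSK3B hairpins and 9.22 with the control.

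Downstream, 14 of 18 genes of the caspase cascade were measured, and 3 rose and 4 fell with the GSK3A hairpins, at a median of -0.03, where 8.56% of all probe sets rose and 8.37% fell. CASP8, the initiator caspase that cuts BID, rose by 0.44 ± 0.06 (limma adjusted p = 1.8e-06), and the inhibitor of apoptosis BIRC2 by 0.23 ± 0.04 (limma adjusted p = 7.3e-05). The channel gene VDAC1 fell by 0.25 ± 0.04 (limma adjusted p = 5.7e-06) and CYCS, cytochrome c, by 0.13 ± 0.03 (limma adjusted p = 7.9e-04). APAF1 was also higher, and XIAP and CFLAR lower, which are named here after their values were seen. XIAP changed by only -0.10 ± 0.03 and was dim, averaging 10.9 with GSK3A hairpins and 12.7 with the control, below the array medians. CFLAR, read by the brightest of its 11 probe sets, changed by -0.15 ± 0.05. By line it stood at -0.32 in HL-60, -0.18 in MOLM-14, -0.12 in THP-1 and 0.004 in U937. With the GSK3B hairpins, where 2.53% of all probe sets passed limma's test, 0 rose (2 at an unadjusted p under 0.05) and 2 fell, HTRA2 by 0.27 ± 0.04 (limma adjusted p = 3.4e-04) and CYCS by 0.15 ± 0.03 (limma adjusted p = 7.9e-04).

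Of 20 genes that act on the members through transcription, modification or turnover, 19 were measured and most did not pass. The share over all probe sets was 16.9% for GSK3A and 2.53% for GSK3B. With the GSK3A hairpins USP9X, a deubiquitinase that spares MCL1, rose by 0.17 ± 0.03 (limma adjusted p = 5.0e-05), MYC fell by 0.44 ± 0.10 (limma adjusted p = 0.0030), and 17 did not pass, NFKB1 and RELA among them. The list's median change was -0.0014. With the GSK3B hairpins STAT3 rose by 0.17 ± 0.03 (limma adjusted p = 0.0040), and no other gene of the list passed. In GSK3A minus GSK3B, where 17.6% of all probe sets passed, these lists gave 3 higher and 0 lower for the other family genes, 4 and 2 for the caspase cascade, and 2 and 2 for the regulators.

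The genes whose pattern was most like that of a called member were taken by Pearson's r over the 20 group means with each line's mean subtracted, among 6904 genes. BCL2 was most like MTHFD2 (r = 0.945) and CPT1A (r = 0.893). BIK was most like SIPA1L3 (r = 0.945) and GART (r = 0.868), and BCL2L2 like ERCC1 (r = 0.887) and GPR107 (r = 0.883). BCL2A1 was most like FGR (r = 0.935) and TNIP1 (r = 0.925). BAK1 was most like EIF1B (r = 0.943) and STAR (r = 0.940), MCL1 like CCNL1 (r = 0.861) and DDX17 (r = 0.858), and BCL2L1 like MTMR2 (r = 0.860) and DNASE2 (r = 0.806). These are descriptions over 20 points that share lines, hairpins and control arrays.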

How the data were processed

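Total RNA of 44 cultures was hybridized to Affymetrix high-throughput human expression arrays. The deposited intensity values are 1 number per probe set on a linear scale that the authors had already normalized. The submitters' processing notes name RMA and MAS5, and which gave these values is not given in the sources used here. All 44 columns matched a labelled sample. Intensities became log2(value + 16), whose array medians spanned 0.154, and were quantile-normalized. The number of arrays limits the precision.

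A mean for each of 20 groups (line by hairpin) was fitted over 22215 probe sets (62 control probe sets left out), with 24 residual degrees of freedom (limma 3.58.1, R 4.3.3), two-sided tests and Benjamini-Hochberg adjustment at 0.05. The p-values do not hold the spread between hairpins. Plate columns (1 to 6 or 7 to 11), read from the labels, held all groups and were tried as a block and separately. Each construct stood in the same single columns in every line. Construct and single column therefore cannot be told apart, and the block does not change this. Deviations of arrays in the same set of columns correlated in MOLM-14 and U937 (r from 0.461 to 0.807 in 24 of 24 pairs each). These pairs are not independent, as the 2 arrays of a hairpin group deviate equally in opposite directions. The fit was tested on simulated data with independent noise on each array. That test does not cover deviations shared within plate columns or the spread between hairpins. Platform annotation gave 1 gene for 19724 probe sets, several for 568 and none for 1923. Named beyond the 10 members were the GSK3 genes, markers, up to 4 passing genes per list and target with the smallest adjusted p, and the 2 genes most like each called member. APAF1, XIAP, CFLAR, PMAIP1, BBC3, HRK, NFKB1 and RELA lie outside this rule and were named after their values were seen. The members and lists were chosen with earlier results of these data known.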

Additional observations from a re-analysis of the deposited data

Results flagged for a closer look

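The change of BCL2L2 with the GSK3A hairpins differed between the cell lines by a moderated F-test (limma adjusted p = 0.01567). It was 0.61 in HL-60, 0.49 in U937, 0.44 in MOLM-14 and 0.08 in THP-1 on the log2 scale. The change of BIK with the GSK3A hairpins also differed between the lines (limma adjusted p = 0.04028), at -0.78 in HL-60, -0.39 in MOLM-14, -0.33 in U937 and -0.11 in THP-1.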

How the results depend on the processing

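The 10 changes for each of GSK3A, GSK3B and their difference were recomputed under 19 alternatives, and 508 of the values stayed on their side of the threshold, 42 lost the call, 20 gained it and 0 reversed a call. Members called with GSK3A hairpins numbered 7 and fell to 3 with line and construct as a random block (correlation 0.0914) and to 2 in plate columns 7 to 11 alone. Leaving out 1 replicate number gave 2 to 8. BCL2, BCL2L2 and BIK kept the call with the random block, which takes the same hairpin in different lines as independent. Members called with GSK3B hairpins numbered 0, and 1 with median scaling, cyclic loess, the deposited values as they stand, pseudocount 1, only probe sets at or above the median intensity, 1 probe set a gene, the replicate block or without U937, and 3 with plate columns as a block. Leaving out 1 replicate number gave 0 to 1. Members called between the targets numbered 6, and 3 in columns 1 to 6 alone or with the random block, and 2 to 6 when 1 replicate number was left out. Replicate numbers followed the plate columns for the hairpin arrays but not for the controls, whose replicates 1 and 2 both lie in columns 1 to 6. Same-number correlations ran from -0.688 to 0.79. They were above 0.1 in 16 of 20 pairs in MOLM-14 and in U937, 6 of 20 in HL-60 and 2 of 20 in THP-1. Mirrored deviations within each hairpin group make these pairs dependent on each other. The replicate block gave 5438 called probe sets against 3762 for GSK3A and 1581 against 562 for GSK3B. Over all probe sets the GSK3A count was 6151 with plate columns as a block, 589 in columns 7 to 11, 2244 without HL-60, 2110 with the random block, and 1135 and 1272 without replicate 1 and 2. The GSK3B count was 1777 with the block, 222 and 6 in columns 1 to 6 and 7 to 11, 176 without HL-60, 343 without THP-1, 45 with the random block, and 4 and 1 without replicate 1 and 2. Between the targets it was 3902, and 6327 with the block, 2164 and 1733 within the columns, 2386 without HL-60, 2463 with the random block, and 1109 and 1059 without replicate 1 and 2. Fewer arrays enter the fits within columns and without a replicate. Without replicate 1 or 2 each hairpin keeps 1 array per line, so the spread comes from the control arrays alone. Those hairpin arrays share 1 set of plate columns, while control arrays of both sets remain. These fits cannot tell a weak change from the effect of plate position and few arrays.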
